A study of Mus musculus with 6 samples.

Results

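Genes of excitation-contraction coupling and calcium handling were examined in mouse muscle with and without *Tarsl2*. The 32 genes, of 53084 in the count table, were found by their symbols and not by a cutoff on their values. They were chosen with earlier results of these data known. They encode the calcium release channels and the voltage sensor (*Ryr1*, *Ryr3*, *Cacna1s*, *Cacna2d1*, *Cacnb1*, *Cacng1*, *Stac3* and *Fkbp1a*), the proteins that build the triad (*Jph1*, *Jph2*, *Trdn*, *Asph* and *Jsrp1*), the SERCA pumps (*Atp2a1*, *Atp2a2* and *Atp2a3*) and their regulators (*Sln* and *Pln*). The others are calcium buffers (*Casq1*, *Casq2*, *Srl*, *Hrc* and *Pvalb*), calmodulin and its kinases (*Calm2*, *Camk2a*, *Camk2b*, *Camk2d* and *Camk2g*), and *Stim1*, *Orai1*, *Itpr1* and *Rcan1*. RNA was sequenced from the muscle of 3 *Tarsl2*+/+ (WT) mice, numbered 583, 584 and 595, and of 3 *Tarsl2*-/- (KO) mice, numbered 588, 589 and 591, with 1 library per mouse. All were male C57BL/6 mice that were 6 weeks old and fed standard chow. The KO mice carry a CRISPR/Cas9 deletion of a fragment with exon 3 of *Tarsl2*, a gene for a threonyl-tRNA synthetase-like protein, and the deletion is not limited to muscle. Which muscle was taken is not given in the sources used here.

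In skeletal muscle, an action potential travels along the transverse tubules and moves the voltage sensor, a calcium channel that touches the ryanodine receptor of the sarcoplasmic reticulum and opens it. The place of contact is the triad, where junctophilins hold the membranes together and triadin and its relatives tie calsequestrin, the calcium store, to the channel. SERCA pumps then return the calcium and so end the contraction. Small membrane peptides such as sarcolipin and phospholamban restrain the pumps, and parvalbumin binds calcium in the cytosol of fast fibres.

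The libraries held 16176591 to 20123767 counts, so that 3 counts were worth 0.146 to 0.187 CPM, the unit for counts adjusted to library size (here with TMM factors). The targeted gene was checked first. *Tarsl2* was at 26.6, 32.1 and 24.3 CPM in WT mice 583, 584 and 595, and at 2.23, 1.87 and 1.80 CPM in KO mice 588, 589 and 591. Expression of 342 of 15075 genes with enough counts differed between the genotypes at an adjusted p under 0.05 (quasi-likelihood test of edgeR, p-values adjusted by Benjamini and Hochberg's method), which is 2.27% of the genes tested. The sample records mention an extraction from retina, whereas the muscle markers *Acta1* and *Mylpf* were abundant in every library and 8 retinal markers had at most 7 counts. No pair of libraries of the same genotype agreed within sampling noise.

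Expression of 3 of these genes rose in KO muscle, and their sequences are shown here to place them. *Cacna1s* lies on the forward strand at chr1:136052750-136119822, *Ryr1* on the reverse strand at chr7:29003344-29125179, and *Sln* on the forward strand at chr9:53850164-53854560 (GRCm38). Sarcolipin is among the smallest proteins of muscle, so its whole coding sequence can be shown. It lies at chr9:53853473-53853568 within 1 exon and holds 31 codons before the stop, and it covers 96 of the 1318 exon bases on which the reads of *Sln* were counted. Start and stop codons are in capitals.
*Sln* coding sequence: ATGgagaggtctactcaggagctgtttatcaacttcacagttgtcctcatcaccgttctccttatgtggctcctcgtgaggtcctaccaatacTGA
For *Cacna1s* and *Ryr1*, the stretches just before the annotated start of the gene are shown, from RefSeq's promoter windows on GRCm38.p6, since they lie upstream of both genes. They end at the base before the gene start of the count table, 61 and 28 bases short of the RefSeq start on which each window is built. The *Cacna1s* stretch is chr1:136052561-136052749 (forward strand), with the E-boxes, the motif CANNTG of muscle regulatory factors, in capitals.
*Cacna1s* promoter: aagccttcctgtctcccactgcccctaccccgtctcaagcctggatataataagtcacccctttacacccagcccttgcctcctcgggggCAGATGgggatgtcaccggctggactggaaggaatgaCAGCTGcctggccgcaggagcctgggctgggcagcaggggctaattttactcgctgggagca
The *Ryr1* stretch is chr7:29125180-29125401, written on the reverse strand, and holds no E-box.
*Ryr1* promoter: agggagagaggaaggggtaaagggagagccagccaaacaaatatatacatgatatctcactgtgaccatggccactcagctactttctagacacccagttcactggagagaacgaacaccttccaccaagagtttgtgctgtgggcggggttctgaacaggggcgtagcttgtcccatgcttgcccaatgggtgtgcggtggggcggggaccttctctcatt
Of the 32 genes, 18 matched the promoter table by symbol, with 22 windows from 250 bases before to 50 bases after a start. Motifs were searched on either strand, and only in the 250 bases before the start. There, 14 of the 22 windows (63.6%) held CANNTG, compared with 66.2% of 32851 windows in all genes searched over the same length. The form CAGCTG, which is one of the CANNTG forms and reads the same on both strands, was in 8 windows (36.4%) compared with 13.0% of all. The motif TATAAA was in 1 of 22 windows and in 12.4% of all, and the MEF2 site in 2 of 22 and in 2.92% of all. For *Jph2* the 2 windows overlap each other, and a match describes the letters, not binding of a factor.

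Of the 32 genes, 30 had enough counts for the test, all except *Ryr3* and *Pln*, which had at most 12 and 10 counts in any library. Expression of 3 of the 30 (10%) was higher in KO than in WT muscle at an adjusted p under 0.05 (*Cacna1s*, *Sln* and *Ryr1*), and none was lower (edgeR; limma-voom gave the same 3 genes, and DESeq2 gave 5 higher and 1 lower). Over all genes tested, 0.896% were higher and 1.37% were lower by the same test. At an unadjusted p under 0.05, 10 of the 30 were higher and 1 was lower, together 36.7%, beside 19.8% of all genes tested. The genotypes did not overlap, with every KO mouse above every WT mouse, for 8 genes (26.7%, beside 12.6% of all genes tested), and with every KO mouse below for 2 (6.67%, beside 11.9%). The median log2 fold change (KO over WT) was 0.09 over the 30 genes and 0.0027 over all genes tested, and 19 of the 30 (63.3%) were above 0, compared with 50.5% of all genes tested. How many of the 30 passed depended on the mice. It was 8 without WT mouse 584 and 1 without WT mouse 583 or without WT mouse 595, and DESeq2 gave 6. In whole muscle, fewer fibres or cells of a type and less RNA per cell cannot be told apart.

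**Figure D1:**
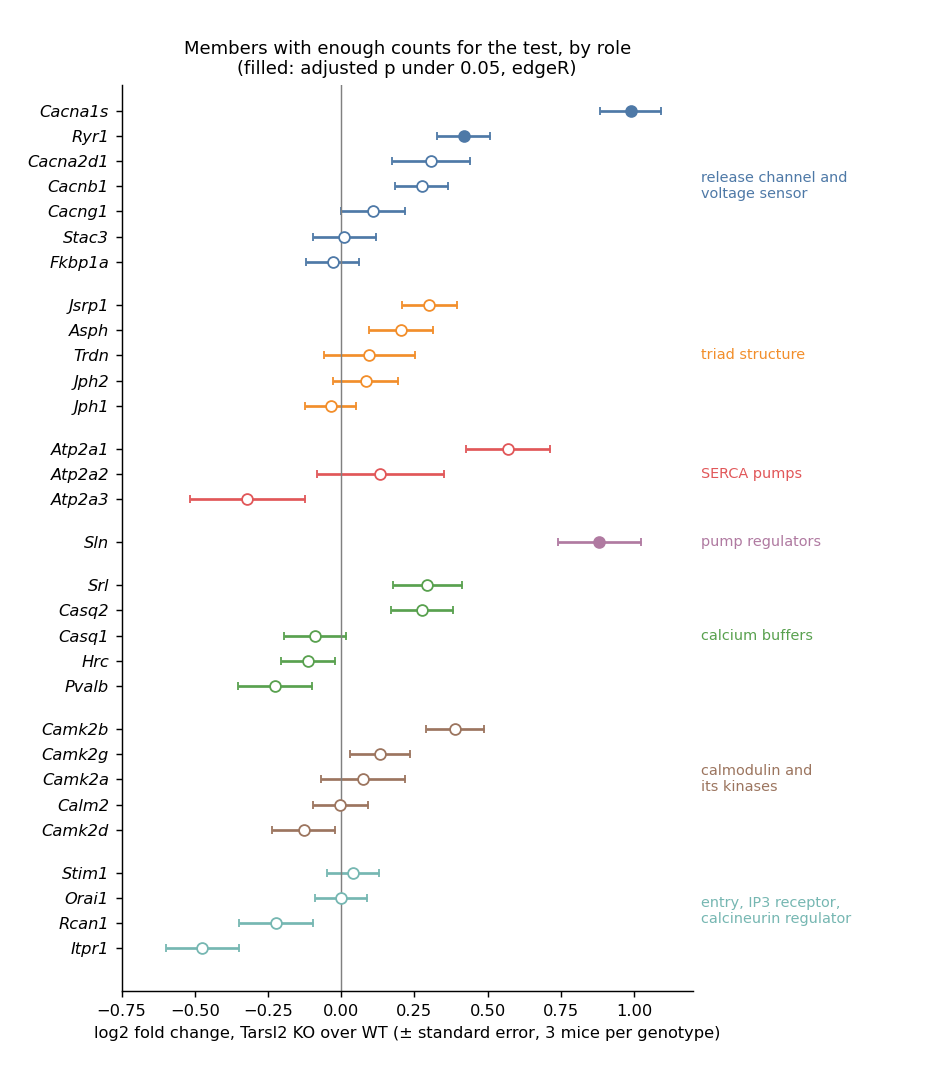
Log2 fold change (KO over WT) with its standard error for the 30 tested genes, 3 mice per genotype, ordered by role, with filled points for an adjusted p under 0.05 (edgeR). The 3 filled points are *Cacna1s* (0.99), *Ryr1* (0.42) and *Sln* (0.88), all to the right of 0, and the lowest value is that of *Itpr1* (-0.47).

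Of the 7 tested genes of the voltage sensor and the release channel, 2 rose, *Cacna1s* and *Ryr1*. *Cacna1s* encodes the pore and voltage sensor of the skeletal muscle calcium channel. Its level was 77.0, 90.4 and 75.6 CPM in WT mice 583, 584 and 595, and 148, 156 and 178 CPM in KO mice 588, 589 and 591. The lowest KO mouse was thus well above the highest WT mouse. Means were 81.0 ± 8.19 CPM in WT and 161 ± 15.8 CPM in KO muscle (SD, n = 3 each), a 1.98-fold difference (log2 fold change 0.99, standard error 0.10, edgeR, adjusted p = 0.0011). This call held in all 6 fits that left out a mouse (log2 fold changes 0.91 to 1.08), and *Cacna1s* was in position 15 of 15075 genes ordered by p. Of its exon bases, 19.98% are shared with an antisense gene on the other strand, *Gm37759*, which had at most 1 count in any library.

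*Ryr1*, which encodes the calcium release channel of skeletal muscle, was at 316, 292 and 289 CPM in the WT mice and at 389, 429.7 and 380.1 CPM in the KO mice, in the same order. All KO mice were above all WT mice, by a smaller step than for *Cacna1s*. Means were 299 ± 14.98 and 399.5 ± 26.5 CPM (SD, n = 3 each), which is 1.34-fold (log2 fold change 0.42, standard error 0.09, edgeR, adjusted p = 0.0403). The direction was the same without any one mouse (0.36 to 0.45), but the adjusted p was then between 0.053 and 0.15, so that the call was lost in all 6 of these fits. *Ryr3*, the second ryanodine receptor of the list, had 0 to 12 counts per library and was 0.0423% of the ryanodine receptor transcripts of the list in WT and 0.114% in KO muscle (per kilobase of exon). The ryanodine receptor transcripts of these muscles were thus nearly all *Ryr1*.

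The partners of *Cacna1s* in the channel complex differed less. *Cacnb1*, the channel's inner beta subunit, was at 120, 118 and 101 CPM in WT mice 583, 584 and 595 and at 134, 139 and 136 CPM in KO mice 588, 589 and 591. These groups did not overlap, yet the difference did not pass (log2 fold change 0.28, standard error 0.09, edgeR, adjusted p = 0.128). *Cacna2d1*, the extracellular subunit, ranged from 56.0 to 86.0 CPM in WT and from 81.8 to 90.3 CPM in KO muscle, where WT mouse 584 lay among the KO mice (log2 fold change 0.31, edgeR, adjusted p = 0.234). Without that mouse the log2 fold change was 0.49 and passed (edgeR, adjusted p = 0.0301). *Cacng1*, the gamma subunit, ranged from 92.5 to 124 CPM in WT and from 118 to 124 CPM in KO muscle. *Stac3*, an adaptor that couples the sensor to the release channel, ranged from 97.6 to 124 CPM in WT and from 108 to 124 CPM in KO muscle. *Fkbp1a*, which binds the release channel, ranged from 221 to 244 CPM in WT and from 216 to 242 CPM in KO muscle. The genotypes overlapped for these 3 genes, with log2 fold changes of 0.11, 0.01 and -0.03 (edgeR, adjusted p = 0.629, 0.976 and 0.903).

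Levels within a library show this unevenness without scaling between libraries. Such ratios, here and below, use the same counts as the levels above and are no separate evidence of a difference. *Cacna1s* per kilobase of exon was 0.812, 1.03 and 0.873 times *Ryr1* in the WT mice, and 1.27, 1.21 and 1.56 times *Ryr1* in the KO mice. Relative to *Stac3* it was 0.240, 0.288 and 0.301 in the WT and 0.503, 0.561 and 0.557 in the KO mice. Its ratios to *Cacnb1*, *Cacna2d1* and *Cacng1* did not overlap between the genotypes either, with means of 0.498 and 0.814 for *Cacnb1*, 2.25 and 3.56 for *Cacna2d1*, and 0.14018 and 0.256 for *Cacng1* in WT and KO muscle.

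**Figure D2:**
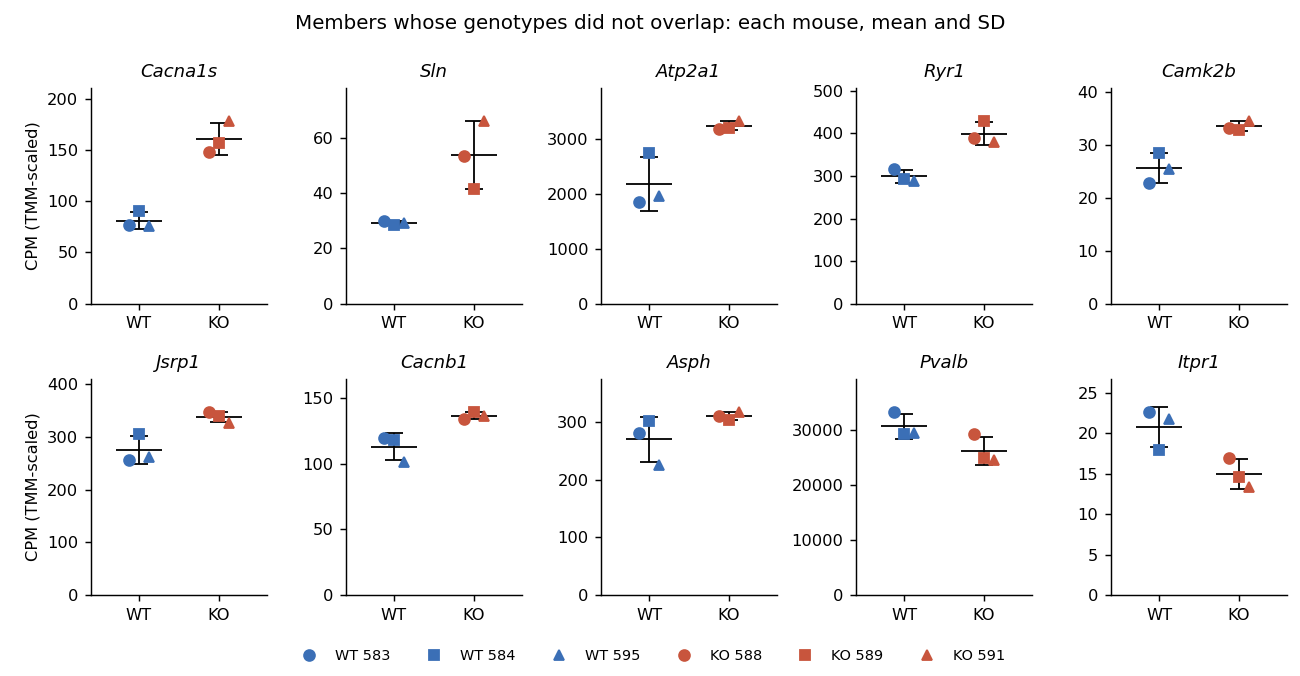
TMM-scaled CPM (axes from 0) of the 10 genes whose genotypes did not overlap, a point for each mouse (blue WT, red KO), with the mean and SD of 3 mice. KO mice were above WT mice for 8 genes and below for *Pvalb* and *Itpr1*, and the gap is wide for *Cacna1s* (75.6 to 90.4 CPM in WT, 148 to 178 in KO) and narrow for *Asph* and *Pvalb*.

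None of the 5 genes for the structure of the triad passed the test with edgeR, DESeq2 or limma-voom, and 1, *Jsrp1*, had an unadjusted p under 0.05. *Jsrp1* encodes a junctional protein that binds the voltage sensor and calsequestrin. It was at 257, 305 and 262 CPM in WT mice 583, 584 and 595 and at 347, 339.5 and 327 CPM in KO mice 588, 589 and 591. The genotypes did not overlap (log2 fold change 0.30, standard error 0.09, edgeR, adjusted p = 0.116). Without WT mouse 584 the adjusted p was 0.044. *Asph*, whose locus also gives junctin and junctate, was at 282, 302 and 226 CPM in the WT and at 311, 304 and 317 CPM in the KO mice. The highest WT mouse was only just under the lowest KO mouse (log2 fold change 0.20, edgeR, adjusted p = 0.335), and under upper quartile scaling the genotypes overlapped.

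*Trdn*, for triadin, lay between 523 and 630.3 CPM in WT muscle and at 787, 525 and 514 CPM in KO mice 588, 589 and 591. KO mouse 588 alone stood above the WT range, and the log2 fold change was 0.10 with it and -0.13 without it. The junctophilin genes encode the membrane bridges of the triad. *Jph1* ranged from 215 to 226 CPM in WT and from 197 to 227 CPM in KO muscle, and *Jph2* from 197 to 266 and from 240.2 to 253 CPM. Their log2 fold changes were -0.04 and 0.08 (edgeR, adjusted p = 0.864 and 0.724).

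Among the pumps, *Atp2a1* was the main gene. It encodes SERCA1, the pump of fast fibres. Its level was 1856, 2759.8 and 1958 CPM in WT mice 583, 584 and 595 and 3192, 3215 and 3340.4 CPM in KO mice 588, 589 and 591. The KO mice lay close together, and WT mouse 584 was much nearer to them than the other WT mice were. Means were 2191 ± 495 and 3249 ± 79.7 CPM (SD, n = 3 each), a 1.48-fold difference that missed the threshold (log2 fold change 0.57, standard error 0.14, edgeR, adjusted p = 0.0658). It passed with DESeq2 (adjusted p = 0.00126) and without WT mouse 584 (log2 fold change 0.77, edgeR, adjusted p = 0.00392). Of the exon bases of *Atp2a1*, 21.9% are shared with *Rabep2* on the other strand, which had 131 to 181 counts per library.

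*Atp2a2*, for SERCA2, the pump of slow fibres and of the heart, was at 68.0, 63.6 and 93.6 CPM in the WT and at 64.9, 117 and 65.2 CPM in the KO mice. KO mouse 589 was the highest and the other two KO mice were in the low end of the WT range. The log2 fold change was 0.13 over all mice and -0.21 without KO mouse 589, in neither case past the threshold (edgeR, adjusted p = 0.785 and 0.566). *Atp2a3*, for SERCA3, a pump of blood and endothelial cells, was low at 7.18, 4.72 and 5.19 CPM in the WT and 4.90, 3.80 and 4.90 CPM in the KO mice (log2 fold change -0.32, edgeR, adjusted p = 0.402). Per kilobase of exon, *Atp2a1* made up 97.8% ± 0.715 of the SERCA transcripts in WT and 98.5% ± 0.519 in KO muscle (SD, n = 3 each), and *Atp2a2* most of the remainder.

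Sarcolipin, a peptide that restrains SERCA in muscle, differed most of the 30 tested genes after *Cacna1s*. *Sln* was at 29.8, 28.6 and 29.4 CPM in WT mice 583, 584 and 595 and at 53.6, 41.7 and 66.3 CPM in KO mice 588, 589 and 591. The WT mice were nearly equal, and the KO mice were all higher but spread over a wide range. Means were 29.3 ± 0.601 and 53.9 ± 12.3 CPM (SD, n = 3 each), which is 1.84-fold (log2 fold change 0.88, standard error 0.14, edgeR, adjusted p = 0.0119). Without WT mouse 583 or WT mouse 595 the fold change was hardly altered (log2 0.89 and 0.88) but the adjusted p became 0.0579 and 0.0503, and the call held in the other 4 fits.

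*Pln*, for phospholamban, the restraint of SERCA in heart and slow fibres, had 8, 3 and 10 counts in the WT and 3, 2 and 4 counts in the KO mice. These are near the 3 counts taken as the lowest countable level, and 64.7% of its exon bases are shared with other genes on the opposite strand. Of the summed *Sln* and *Pln* transcripts per kilobase, with other SERCA peptides left out, *Sln* was 99.4% in WT and 99.9% in KO muscle. Relative to *Atp2a1* within each library, *Sln* per kilobase was 0.0424, 0.0274 and 0.0396 in the WT mice and 0.0443, 0.0342 and 0.0524 in the KO mice, ranges that overlapped, whereas *Sln* relative to *Casq1* did not overlap (0.0264 to 0.0321 in WT and 0.0414 to 0.0706 in KO muscle).

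The 5 calcium buffers had log2 fold changes on both sides of 0. None passed with edgeR, DESeq2 or limma-voom, and 2, *Casq2* and *Srl*, had an unadjusted p under 0.05. *Pvalb*, for parvalbumin, had the highest count of the 32 genes, at 33210.3, 29281 and 29328 CPM in WT mice 583, 584 and 595 and 29148, 24775 and 24524 CPM in KO mice 588, 589 and 591. KO mouse 588 was just below the lowest WT mouse. The difference was small against the spread (log2 fold change -0.23, standard error 0.13, edgeR, adjusted p = 0.348). *Pvalb* alone took 2.46% to 3.38% of all counts of a library.

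*Casq1*, the calsequestrin of fast fibres, was at 1674, 1608 and 1353 CPM in the WT and 1474, 1491 and 1389.7 CPM in the KO mice (log2 fold change -0.09, edgeR, adjusted p = 0.69). *Casq2*, the calsequestrin of heart and slow fibres, was at 26.8, 31.1 and 28.8 CPM in the WT and at 36.3, 38.3 and 30.6 CPM in the KO mice. WT mouse 584 was above KO mouse 591, so the groups overlapped (log2 fold change 0.27, standard error 0.11, edgeR, adjusted p = 0.18). As a share of calsequestrin transcripts per kilobase, *Casq2* was 1.13%, 1.36% and 1.497% in the WT and 1.72%, 1.80% and 1.55% in the KO mice, without overlap. *Atp2a1* relative to *Casq1* per kilobase also separated the genotypes, at 0.622, 0.963 and 0.812 in the WT and 1.216, 1.21 and 1.35 in the KO mice.

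*Srl*, for sarcalumenin, a calcium-binding glycoprotein of the reticulum, ranged from 346 to 462 CPM in WT and from 458 to 525 CPM in KO muscle (log2 fold change 0.29, standard error 0.12, edgeR, adjusted p = 0.197). Without WT mouse 584 it was 0.42 and passed (edgeR, adjusted p = 0.0465). *Hrc*, for the histidine-rich calcium-binding protein, ranged from 254 to 286 CPM in WT and from 232 to 269 CPM in KO muscle (log2 fold change -0.11, edgeR, adjusted p = 0.541).

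**Figure D3:**
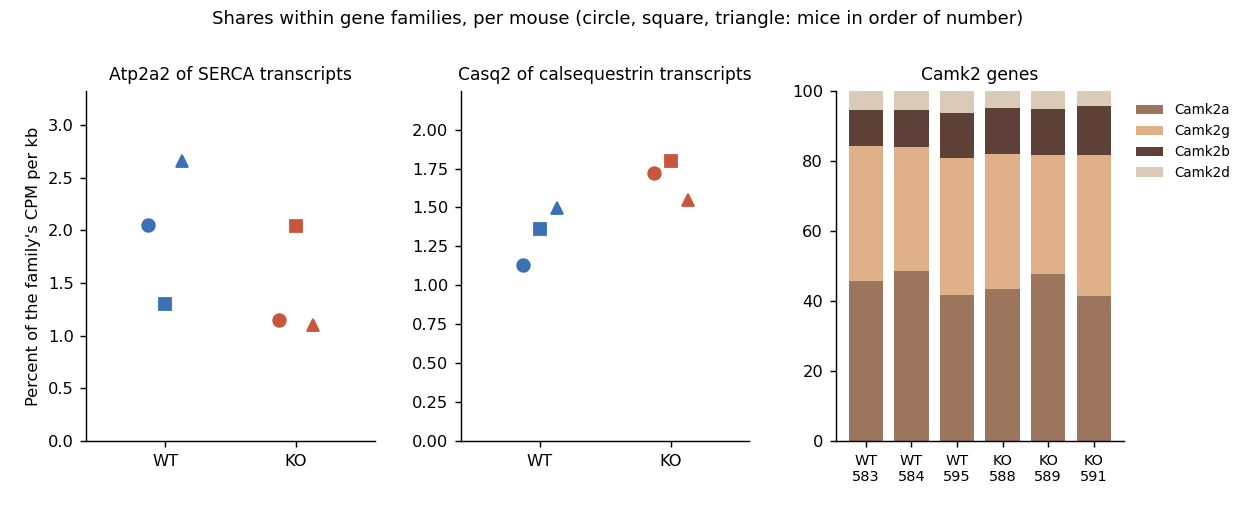
Share of the family's CPM per kilobase of exon, in percent, for *Atp2a2* among SERCA transcripts and *Casq2* among calsequestrin transcripts (a point for each mouse, axes from 0), and for the 4 *Camk2* genes (a stacked bar for each mouse, 100% in all). *Casq2* is 1.13% to 1.497% in WT and 1.55% to 1.80% in KO mice, *Atp2a2* overlaps, and *Camk2a* and *Camk2g* fill most of every bar.

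Of the calmodulin kinase II genes, *Camk2b* separated the genotypes. Its product decodes calcium signals and is known from muscle and brain. *Camk2b* was at 22.9, 28.5 and 25.4 CPM in WT mice 583, 584 and 595 and at 33.2, 32.8 and 34.6 CPM in KO mice 588, 589 and 591. All KO mice were above all WT mice and close together (log2 fold change 0.39, standard error 0.10, edgeR, adjusted p = 0.0667). It passed with DESeq2 (adjusted p = 0.0478) and without WT mouse 584 (edgeR, adjusted p = 0.0312).

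*Camk2a* was at 83.4, 106 and 66.3 CPM in the WT and 89.4, 96.4 and 83.6 CPM in the KO mice. *Camk2g* was at 60.15, 66.0 and 53.4 CPM in the WT and 67.8, 58.8 and 69.9 CPM in the KO mice. *Camk2d* was at 29.0, 34.5 and 29.5 CPM in the WT and 29.2, 30.6 and 25.4 CPM in the KO mice. The genotypes overlapped for these 3 genes, whose log2 fold changes were 0.08, 0.13 and -0.13. Per kilobase of exon, *Camk2a* was 45.4% ± 3.52 of the family's transcripts in WT and 44.2% ± 3.21 in KO muscle (SD, n = 3 each), *Camk2g* 37.7% and 37.6%, *Camk2b* 11.4% and 13.5%, and *Camk2d* 5.56% and 4.64%. *Calm2*, which encodes calmodulin, the calcium sensor of these kinases, ranged from 386 to 415 CPM in WT and from 368 to 434 CPM in KO muscle, with a log2 fold change of -0.0035.

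*Itpr1* was the member furthest below 0. It encodes an inositol trisphosphate receptor, a calcium release channel of many cell types. It was at 22.7, 18.0 and 21.8 CPM in WT mice 583, 584 and 595 and at 17.0, 14.6 and 13.4 CPM in KO mice 588, 589 and 591. The groups were separated by the step between WT mouse 584 and KO mouse 588 (log2 fold change -0.47, standard error 0.13, edgeR, adjusted p = 0.0727). It passed with DESeq2 (adjusted p = 0.0417) and without WT mouse 584 (edgeR, adjusted p = 0.0332). The store sensor gene *Stim1* ranged from 57.1 to 59.3 CPM in WT and from 53.6 to 63.4 CPM in KO muscle, and the entry channel gene *Orai1* from 29.8 to 31.1 and from 28.5 to 32.8 CPM. They had log2 fold changes of 0.04 (standard error 0.09, edgeR, adjusted p = 0.856) and -0.00025 (standard error 0.09, edgeR, adjusted p = 0.999). *Rcan1*, for a regulator of calcineurin, ranged from 68.8 to 89.2 CPM in WT and from 57.1 to 74.9 CPM in KO muscle (log2 fold change -0.22, edgeR, adjusted p = 0.357).

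For comparisons between genes, CPM was divided by the length of the annotated exons. On this scale *Pvalb* was first in WT muscle at 29401 ± 2166 CPM per kilobase (SD, n = 3), far above *Casq1* at 792 ± 87.0 and *Atp2a1* at 630.2 ± 142. Within each WT library *Atp2a1* was below *Casq1*, but with only exon bases shared with no other gene the WT means were 807 and 861. *Calm2* (273), *Jsrp1* (206) and *Hrc* (105) followed. *Sln* stood at 22.2, *Ryr1* at 13.7, *Orai1* at 13.3, *Cacna1s* at 12.4, *Atp2a2* at 12.3 and *Camk2a* at 11.4 CPM per kilobase. In KO muscle *Cacna1s* was at 24.6 ± 2.41 and *Ryr1* at 18.3 ± 1.21 CPM per kilobase (SD, n = 3 each), on this scale the reverse of their order in WT muscle. That reversal rests on the length used. With only the exon bases shared with no other gene, *Cacna1s* was above *Ryr1* in WT muscle too (15.5 and 14.3). By the longest transcript, *Ryr1* was above *Cacna1s* in WT muscle (19.5 and 13.0), and the genes were nearly level in KO muscle. *Pln* (0.139) and *Ryr3* (0.00605) were the lowest. *Atp2a1* was above *Casq1* in KO muscle (934 and 744 CPM per kilobase).

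**Figure D4:**
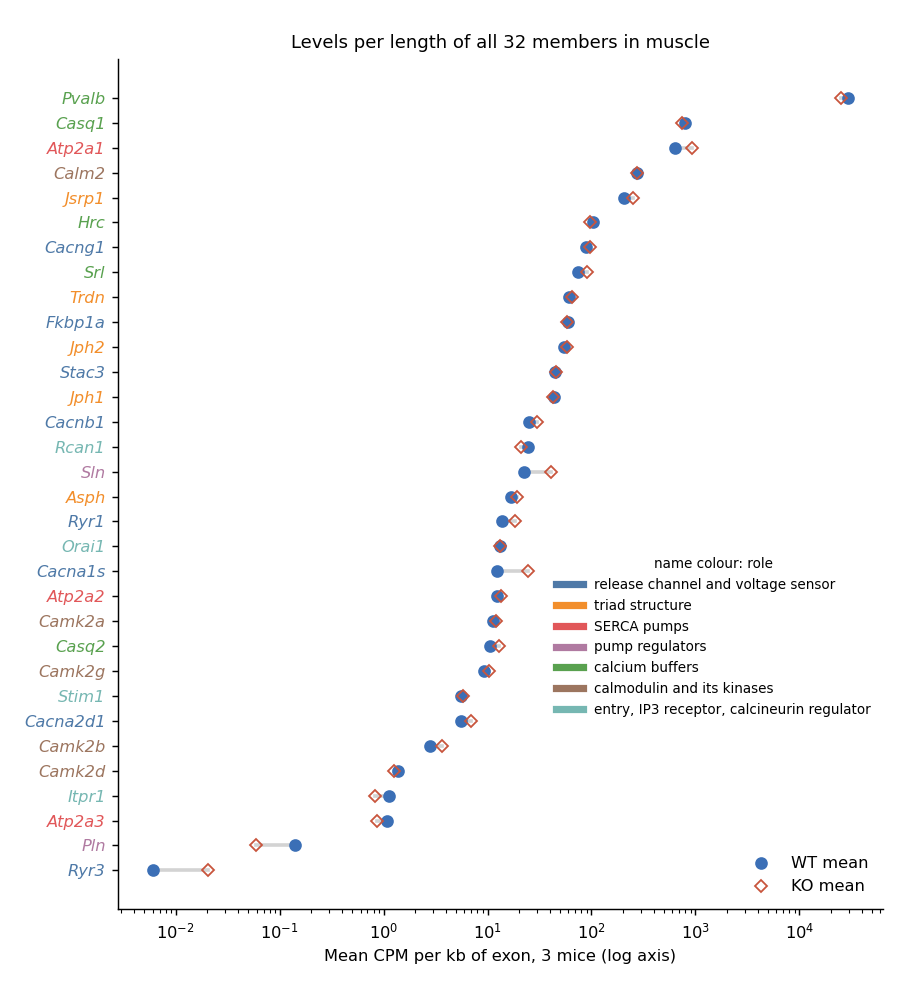
Mean CPM per kilobase of annotated exon of the 32 genes (log axis) in WT (filled circles) and KO muscle (open diamonds), 3 mice each, ordered by the WT mean and with names coloured by role. Levels run from *Pvalb* (29401 in WT) to *Ryr3* (0.00605), and the pairs of points lie visibly apart for *Cacna1s*, *Sln* and *Atp2a1* and for the barely detected *Pln* and *Ryr3*.

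Other genes of calcium handling were read from lists of 98 genes, of which 96 were in the table and 81 had enough counts. Expression of 3 of the 81 (3.70%, beside 2.27% of all genes tested) was higher in KO muscle and of none lower (edgeR, adjusted p under 0.05; DESeq2 gave 4 higher and 3 lower). At an unadjusted p under 0.05, 12 were higher and 8 lower, together 24.7% beside 19.8% of all genes tested, and the median log2 fold change of the 81 was 0.01. These 3 were among the 27 tested triad proteins and channel subunits besides those above, and 2 of them are described here. *Speg*, for a kinase bound to the release channel and the pump, was at 43.5, 48.3 and 42.1 CPM in the WT and 57.3, 63.6 and 58.5 CPM in the KO mice (log2 fold change 0.42, edgeR, adjusted p = 0.0346). *Mtmr14*, for a phosphoinositide phosphatase of muscle, was at 15.4, 14.5 and 13.3 CPM in the WT and 19.5, 24.9 and 24.3 CPM in the KO mice (log2 fold change 0.67, edgeR, adjusted p = 0.0175). For both genes every KO mouse was above every WT mouse. The calls were less firm than the direction. *Speg* lost its call without any mouse but WT mouse 584 (edgeR, adjusted p = 0.0652 to 0.144) and *Mtmr14* without WT mouse 583, WT mouse 595, KO mouse 589 or KO mouse 591 (edgeR, adjusted p = 0.0605 to 0.0721).

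None of the other 5 lists had a gene past the threshold in edgeR, and genes with the smallest p of each are given. DESeq2 called 3 genes of these lists lower, among them *Mcub* and *Mrln*, and *Myoz1* higher. Of 6 tested pump regulators and efflux genes these were *Mrln*, for the SERCA peptide myoregulin (log2 fold change -0.45, edgeR, adjusted p = 0.126), and *Slc8a3*, a sodium-calcium exchanger (0.39, edgeR, adjusted p = 0.219). *Mrln* was at 115 to 166 CPM in WT and 85.4 to 119.7 CPM in KO muscle, ranges that overlapped. Per kilobase of exon, the WT mean of *Mrln* was 118 CPM, above the 22.2 CPM of *Sln*. Of 20 kinases and calcineurin partners they were the calsarcin genes *Myoz2* (0.67, edgeR, adjusted p = 0.0778) and *Myoz1* (0.28, edgeR, adjusted p = 0.13).

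Of 11 calcium-binding proteins, the chaperone gene *Calr* is given (-0.21, edgeR, adjusted p = 0.194). Of 8 store-operated entry genes and inositol trisphosphate receptors they were *Stim2* (-0.27, edgeR, adjusted p = 0.149) and *Saraf* (0.24, edgeR, adjusted p = 0.176). Of 9 genes of mitochondrial calcium uptake they were *Mcub*, for an inhibitory subunit of the uniporter (-0.69, edgeR, adjusted p = 0.077), and *Letm1* (0.21, edgeR, adjusted p = 0.171).

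Markers of fibre types and of other cells were set beside these results. The fast fibre list summed to 81739 to 89105 CPM in WT and 93272 to 102561 CPM in KO muscle, and 2 of its 8 tested genes rose, *Actn3* (log2 fold change 0.69, edgeR, adjusted p = 0.0081) and *Myh1* (0.59, edgeR, adjusted p = 0.0151). *Mylpf*, its most abundant gene, did not pass (0.08). Of 9 skeletal muscle genes, 4 of which are also in the fast fibre list, *Myh1*, *Ckm* (0.49, edgeR, adjusted p = 0.0433) and *Des* (0.50, edgeR, adjusted p = 0.0197) rose. Of the 6 fits that left out a mouse, *Actn3* kept its call in 5 and *Myh1* in 4, *Des* in those without WT mouse 584 or WT mouse 595, and *Ckm* only in that without WT mouse 584. All 4 lost it without WT mouse 583. *Ckm* also lost its call under upper quartile scaling and under the filter of 10 counts in each library. Log2 fold changes were above 0 for 7 of the 8 tested fast fibre genes and 7 of the 9 skeletal muscle genes. *Myh4*, in both lists, was at -0.03 and *Mb* at -0.11. *Atp2a1*, *Cacna1s* and *Ryr1* thus moved the same way as the muscle genes that rose. *Pvalb* (-0.23) and *Casq1* (-0.09), also of fast fibres, were below 0 without passing. The part of fibre type or of muscle RNA content in these values was not tested. *Tnnc2*, the fast troponin C gene, had 2 to 4 counts in every library, and 74% of its exon bases are shared with *Ube2c* on the other strand, and how reads in exons shared between strands were counted is not given in the sources used here.

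None of 8 slow fibre genes passed with edgeR, DESeq2 or limma-voom, 3 had an unadjusted p under 0.05, and the log2 fold changes of all 8 were above 0. Without a filter on low counts, 5 of them passed (edgeR). The list summed to 875, 946 and 1540 CPM in WT mice 583, 584 and 595 and to 1199, 1856.5 and 1327 CPM in KO mice 588, 589 and 591. *Myl3*, the most abundant, had a log2 fold change of 0.33. KO mouse 589 was the highest and WT mouse 595 the next in the summed level, as they were for *Atp2a2*, the slow fibre pump, and the part of slow fibres in that value was not tested. For *Sln*, KO mouse 589 was the lowest of the KO mice. Without KO mouse 589 the log2 fold change of *Sln* was 1.04 (edgeR, adjusted p = 0.00257), and that of *Casq2* went from 0.27 to 0.21.

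Markers of other cells went down or varied. The 6 leukocyte markers summed to 197 to 218 CPM in WT and 108 to 133 CPM in KO muscle, and *Cd74*, *Adgre1* and *Csf1r* fell past the threshold (log2 fold changes -1.24, -0.56 and -0.53, edgeR, adjusted p under 0.05). *Cd74* kept its call without any one mouse, *Csf1r* lost it without WT mouse 583, KO mouse 588 or KO mouse 589, and *Adgre1* kept it only without WT mouse 584. Of 5 endothelial markers only *Cdh5* passed (-0.64, lost without WT mouse 583, while the most abundant, *Tek*, was at -0.14), with sums of 139 to 157 CPM in WT and 106 to 138.9 CPM in KO muscle. *Itpr1* and *Atp2a3*, which such cells also express, lay on the same side, and the part of these cells in their values was not tested. Adipocyte markers summed to 3158 CPM and myelin markers to 113 CPM in KO mouse 589, above the other 5 mice (1009 to 1637 and 24.8 to 66.4 CPM). The most abundant genes of these lists, *Cfd* and *Mbp*, had log2 fold changes of 0.54 and 0.01. *Cfd* alone was at 2719 CPM in KO mouse 589. At an unadjusted p under 0.05 (edgeR), 1 adipocyte gene was lower and 1 myelin gene higher in KO muscle. Red cell markers summed to 4740 to 10375 CPM in WT and 4161 to 4529 CPM in KO muscle, and smooth muscle markers and those of denervated or neonatal muscle overlapped between the genotypes, with no gene of these 3 lists past the threshold in DESeq2 or in edgeR with all mice, TMM and the filter used here (4 red cell genes and 1 gene of denervated or neonatal muscle were lower at an unadjusted p under 0.05). *Hbb-bt* did pass under upper quartile scaling and under the filter of 10 counts in each library, *Alas2*, *Hba-a1*, *Hbb-bs* and *Hbb-bt* passed without WT mouse 584, and all 5 red cell genes passed without a filter on low counts (edgeR). Their most abundant genes, *Hbb-bs*, *Acta2* and *Myog*, had log2 fold changes of -0.72, -0.07 and -0.07. Of 5 heart markers, *Myh6*, *Myl7* and *Ryr2* had at most 10 counts in any library and *Nppa* had 0, while *Myl4*, with 135 to 352 counts, did not pass (log2 fold change 0.68, edgeR, adjusted p = 0.063).

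**Figure D5:**
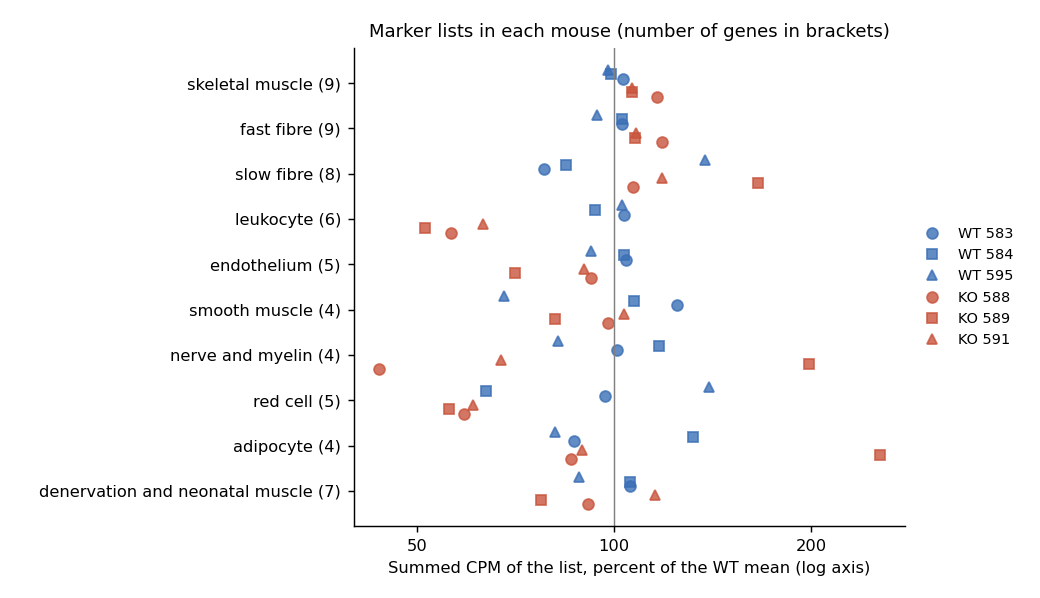
Summed CPM of each marker list in each mouse (blue WT, red KO), in percent of the WT mean (log axis), with the number of genes in brackets. Fast fibre and skeletal muscle sums lie higher and leukocyte and red cell sums lower in all KO mice than in all WT mice, while KO mouse 589 stands apart for the slow fibre, myelin and adipocyte lists.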

How the data were processed

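Total RNA from muscle was made into poly(A)-selected, stranded libraries and sequenced in paired-end mode. According to the methods, HISAT2 and mm10 were used for mapping by the authors, whereas the submitters' processing notes name Bowtie 0.12.2 and mm8. The counting tool, annotation and use of strand are not given in the sources used here. The authors deposited counts of reads per gene as whole numbers, without normalization, together with a gene length. Of the table's identifiers, 95.2% had the same coordinates in GENCODE vM21 (GRCm38), as did 31 of the 32 genes described.

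Samples were grouped by genotype from their labels. The label of KO mouse 589 begins with KOT1, whereas those of the other KO mice begin with KO1. What this difference means is not given in the sources used here. The genes described and all lists were chosen with earlier results of these data known. Genes were kept by filterByExpr (minimum count 10, minimum total count 15) and tested in edgeR 4.0.16 with R 4.3.3 (TMM scaling, then glmQLFit with genotype alone in the model and glmQLFTest). Adjustment of p-values over all 15075 genes tested followed Benjamini and Hochberg, and calls were made under 0.05. Standard errors are absolute log2 fold changes over the root of the F statistic. The common biological coefficient of variation was 12.1%. An exact permutation test of 3 mice against 3 cannot go below a p of 0.1, which is the value for each gene whose genotypes did not overlap. The procedure was tested on 5 sets of simulated counts with genes changed by a log2 fold of 1. It recovered 69.2% to 76.0% of the changed genes, and 5.19% to 10.9% of its calls were false. Floors cover counting error only. CPM per kilobase used the union of annotated exons.

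Values in every mouse are given for genes with an adjusted p under 0.05 or without overlap between genotypes, and for the ryanodine receptors, SERCA pumps, calsequestrins, pump regulators and *Camk2* genes. Of each list of other calcium genes, those past the threshold or else the 2 with the smallest p are named, and of the marker lists those past the threshold and the most abundant. *Itgam* is listed under 2 identifiers, and the row with more counts was used. Results of some single genes are not reported here. Alternatives were DESeq2 1.42.0, limma-voom (limma 3.58.1), RLE and upper quartile scaling, other filters on low counts, a minimum log2 fold change of 0.5, other gene lengths and each library left out in turn.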

Additional observations from a re-analysis of the deposited data

How the results depend on the processing

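Direction and side of the threshold were kept by *Cacna1s* under every alternative run, and by *Sln* and *Ryr1* except where a mouse was left out, as given above, and, for *Ryr1*, under a minimum log2 fold change of 0.5. The count of the 30 genes past the threshold was 3 with limma-voom, RLE, upper quartile scaling and at least 10 counts in every library, 6 with DESeq2 and without a filter on low counts, 2 with a minimum log2 fold change of 0.5, and 1 to 8 when each library was left out. Over all genes tested it was 719 with DESeq2, 1437 without a filter and 81 to 625 with a library left out. For the other calcium genes it was 7 with DESeq2, 9 without a filter and 0 to 5 with a library left out. Marker genes past the threshold numbered 8 above, 26 without a filter and 2 to 13 with a library left out. Among the fits with a library left out, these counts were highest without WT mouse 584 and lowest without WT mouse 583, tied with WT mouse 595 for the 30 genes and with KO mouse 589 for the other calcium genes. The median log2 fold change of the 30 genes was 0.012 to 0.12 with a library left out, the lowest without WT mouse 595. With a library left out, 10 to 17 of the 30 genes did not overlap between the genotypes. Smaller groups separate more readily by chance, and the share over all genes tested was not counted with a library left out. These counts therefore cannot show whether the 30 genes differ from other genes in this respect. Near 0, directions turned: with a library left out, log2 fold changes were -0.010 to 0.20 for *Cacng1*, -0.10 to 0.068 for *Stac3*, -0.085 to 0.019 for *Fkbp1a*, -0.081 to 0.021 for *Jph1*, -0.028 to 0.19 for *Jph2*, -0.13 to 0.20 for *Trdn*, -0.21 to 0.32 for *Atp2a2*, -0.067 to 0.052 for *Calm2*, -0.079 to 0.26 for *Camk2a*, -0.0029 to 0.11 for *Stim1* and -0.055 to 0.046 for *Orai1*, and *Stac3* was at -0.011 under upper quartile scaling. By the longest transcript, *Camk2a* was 36.9% and *Camk2b* 16.6% of the family in KO muscle, and by unshared exon length, an alternative added after *Tnnc2* was seen at a few counts, *Casq2* was 1.56%. The causes of these changes were not tested. No paired analysis was possible because no mouse number occurs in both genotypes. No batch is named in the labels. With 3 mice per genotype, edgeR p-values set the genotype difference against the spread between mice, moderated over all genes, and rest on these mice only. At this depth *Ryr3* and *Pln* could not be compared.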
